A study of Mus musculus with 12 samples.

Results

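The response of control B16 cells to interferon gamma (IFNγ) was read from 6 of the 12 RNA-seq libraries of a study of syndecan-1, and was described across all genes with enough counts. B16 is an established mouse melanoma line, grown here in DMEM with 10% FBS. The control cells carried a short hairpin RNA against RFP (shRFP) and were either left without cytokine (libraries 1 to 3) or given IFNγ at 10 ng/ml for 24 h (libraries 1 to 3). The other 6 libraries came from the same line with a hairpin against Sdc1 (shSdc1), likewise with and without IFNγ, and enter only through the shared scaling, filter on low counts and estimate of spread, and 1 comparison at the end. All groups therefore share the line, the hairpin procedure and the medium. Total RNA was extracted with TRIzol, and mRNA libraries were read as paired ends on an Illumina HiSeq. Nothing in the labels states if replicate libraries were grown as separate cultures. The p-values therefore cover the spread between these libraries alone, and that spread may be technical.

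IFNγ is a dimeric cytokine made mainly by T cells and natural killer cells. Its receptor, IFNGR1 with IFNGR2, activates the kinases JAK1 and JAK2, which phosphorylate STAT proteins. STAT dimers bind GAS elements in promoters, among them that of Irf1, and IRF1 and a complex that holds STAT2 and IRF9 then act on a second kind of element, the ISRE. In tumour cells the response is known for restoring antigen presentation, for drawing in T cells through chemokines and for raising the inhibitory ligand PD-L1. B16 cells are known for a low resting level of class I antigen presentation.

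The 6 libraries held 14337771 to 21548940 counts. Replicates differed by more than sampling noise, so no library was counted as a repeat of another. The first principal component of these 6 libraries, with 75.33% of the variance, separated those with IFNγ from those without. Pigment-cell genes were abundant in every library (Pmel at 4037 to 4497 counts-per-million, CPM), although Ednrb and Lef1, 2 of the 24 pigment-cell genes listed, had 0 counts. Of 20 leukocyte markers 12 had 0 counts in all 6 libraries, and their summed level was 3.74 to 3.80 CPM without and 6.29 to 9.58 CPM with IFNγ. Of these, Cd68, a lysosomal glycoprotein of macrophages, was called higher (2.69, 2.79 and 1.87 CPM against 6.15, 4.86 and 7.96). Markers of stroma and epithelium summed to 3.65 to 4.63 and 2.71 to 3.38 CPM. In such bulk samples more cells of a type and more RNA per cell cannot be told apart.

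A gene was called when its Benjamini-Hochberg adjusted p in edgeR's quasi-likelihood test was under 0.05, and 14089 genes were tested. Of these, 31.6% were called, 17.2% higher and 14.4% lower with IFNγ. The response was uneven in size. Of the called genes 3876 (87.18%) changed by less than 2-fold, and the median log2 fold change was 0.30 for those higher and -0.34 for those lower. Changes of at least 2-fold were found in 2.92% of tested genes upward and 1.12% downward. The upward tail was long: 214 called genes were at least 4-fold, 169 at least 8-fold, 122 at least 16-fold and 86 at least 32-fold higher. Only 11 were at least 4-fold lower, and 1 at least 8-fold lower. Among the genes called higher 29 had 0 counts in the untreated libraries, so that their fitted fold changes depend on edgeR's prior count. The CPM ranges of the 2 groups did not overlap in 41.4% of tested genes, 21.7% higher and 19.7% lower. Genes at least 2-fold higher took 0.411 to 0.415% of all counts without IFNγ and 3.03 to 3.07% with it. Those at least 2-fold lower went from 0.284 to 0.330% of counts down to 0.116 to 0.121%. The split between small changes depended on scaling: with upper-quartile factors, which moved the median of all genes by -0.05, 1759 genes were called higher and 2811 lower, against 2422 and 2024 with TMM factors. Exons of Ciita, Batf2, Cxcl10 and Psmb8 overlap a gene on the other strand (Dexi, Arl2, Art3 and Gm20496), and exons of Tap1 overlap those of Psmb9. As the sources used here do not give the strand setting, reads of such pairs could not be told apart.

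**Figure D1:**
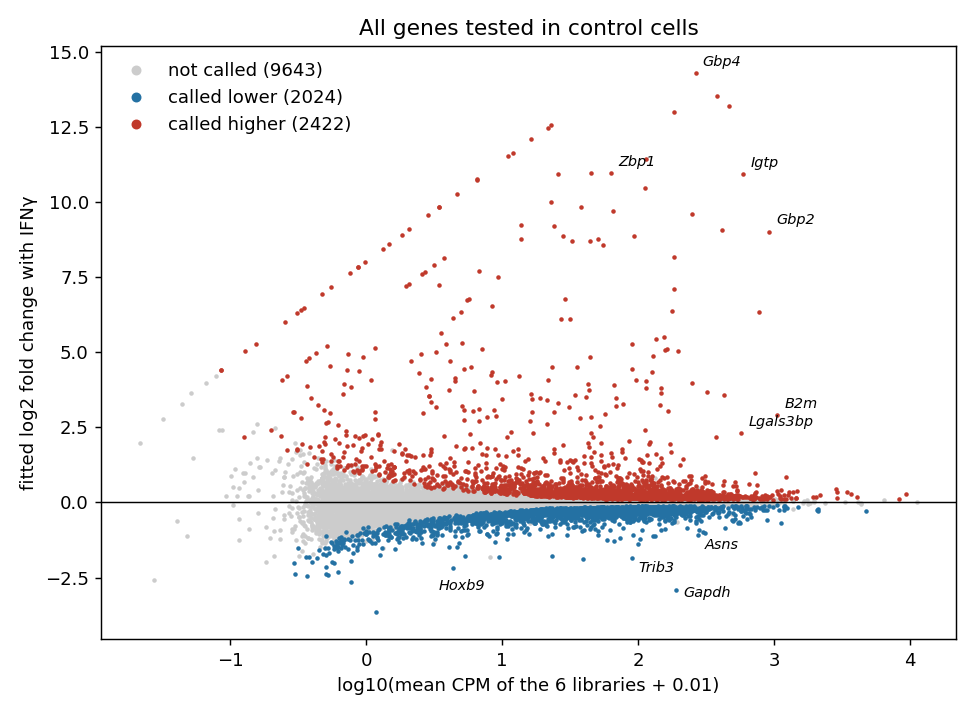
Every gene tested in control cells, by log10 of its mean level over the 6 libraries (horizontal, CPM + 0.01) and its fitted log2 fold change with IFNγ (vertical), 1 point per gene. Red points were called higher (2422), blue points lower (2024) and grey points were not called. The upward points reach far beyond the downward ones, and the fitted values of genes with few or no counts without IFNγ depend on edgeR's prior count.

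Promoters were compared with the response by letters alone. Windows of 250 bases before to 50 after each RefSeq gene start (mouse build GRCm38.p6) were searched on both strands. The GAS letters were TTCNNNGAA and the ISRE letters were GAAA, any 2 bases, GAAA. A window was found for 9748 tested genes. Shares are of genes with a window, and a gene counted when any of its windows held the letters. Genes with several starts thus had more chances to match. The ISRE letters were found for 3.68% of tested genes and 2.59% of genes not called. They were found for 82 of 279 genes (29.4%) called at least 2-fold higher and 70 of 1598 (4.38%) called higher by less. Of genes called at least 2-fold lower 2 of 65 (3.08%) had them. Among genes at least 16-fold higher, a class set after the data were seen, 42 of 83 (50.6%) had them. The GAS letters were found for 8.29% of tested genes, 40 of 279 (14.3%) at least 2-fold higher and 18 of 83 (21.7%) at least 16-fold higher. Both kinds stood in the same window for 0.482% of tested genes and 19 of 279 (6.81%) at least 2-fold higher. An E-box, CACGTG, went the other way, with 11.9% of tested and 6.45% of at least 2-fold higher genes. The share over all 27025 genes with a window (32851 windows) was 3.99% for the ISRE, 9.55% for the GAS and 8.09% for the E-box letters. Clustered gene families share promoter sequence, so these windows are not independent, and a match shows letters, not binding.

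The stretches around these matches are given for genes whose values follow, on the strand of the gene and 5′ to 3′, with the matches in capitals. TTTC-type capitals are the ISRE letters read from the other strand, and neighbouring matches can overlap. In Irf1 and Irf8 only GAS letters were found, starting at -90 and at -171 and -153 from the gene start.
Irf1, chr11:53769899-53769957, plus strand: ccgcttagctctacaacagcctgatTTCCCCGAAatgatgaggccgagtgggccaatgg
Irf8, chr8:120736162-120736238, plus strand: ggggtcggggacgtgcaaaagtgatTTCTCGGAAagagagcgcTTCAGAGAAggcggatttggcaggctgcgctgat
In the GTPase genes Igtp and Tgtp2 a GAS match was followed at once by an ISRE match.
Igtp, chr11:58199486-58199555, plus strand: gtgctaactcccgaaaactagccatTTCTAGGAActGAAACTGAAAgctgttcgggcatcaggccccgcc
Tgtp2, chr11:49064248-49064318, minus strand: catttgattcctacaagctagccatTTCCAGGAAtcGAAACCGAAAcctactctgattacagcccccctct
The stretches of Irgm1, Gbp2, Gbp3, Socs1, B2m and Cxcl10 held ISRE letters only.
Irgm1, chr11:48871421-48871475, minus strand: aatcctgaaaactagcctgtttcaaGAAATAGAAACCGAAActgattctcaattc
Gbp2, chr3:142620579-142620638, plus strand: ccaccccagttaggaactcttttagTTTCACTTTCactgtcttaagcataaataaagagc
Gbp3, chr3:142559974-142560039, plus strand: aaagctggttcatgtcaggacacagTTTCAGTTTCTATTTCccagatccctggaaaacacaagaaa
Socs1, chr16:10785579-10785644, minus strand: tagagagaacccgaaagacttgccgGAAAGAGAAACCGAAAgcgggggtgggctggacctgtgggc
B2m, chr2:122147523-122147582, plus strand: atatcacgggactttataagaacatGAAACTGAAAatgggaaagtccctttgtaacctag
Cxcl10, chr5:92349068-92349127, minus strand: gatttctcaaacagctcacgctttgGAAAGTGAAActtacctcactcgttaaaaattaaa

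Neither receptor gene passed the test, while Stat2 and Stat3 downstream rose. Ifngr1, the ligand-binding chain, stood at 13.1, 12.9 and 13.9 CPM without and 12.2, 11.8 and 12.2 CPM with IFNγ, and did not pass (edgeR adjusted p = 0.28). The partner chain Ifngr2 overlapped between the groups, at 50.8 to 59.3 and 50.1 to 57.4 CPM (adjusted p = 0.738). Jak1 rose from 142, 151 and 138 to 202, 203 and 198 CPM (log2 fold change 0.49 ± 0.05, SE; edgeR adjusted p = 1.08e-07), and Jak2 by 0.30 ± 0.06 on that scale. Stat2, a subunit of the ISRE-binding complex, went from 21.2, 23.8 and 19.3 to 284, 269 and 259 CPM, or 12.6-fold (3.65 ± 0.06; edgeR adjusted p = 2.55e-19). Every treated library was far above every untreated one. Stat3, the usual mediator of IL-6 family signals, went from 80.5 to 84.1 CPM up to 254 to 270 CPM (3.23-fold). Of 14 genes listed for receptors, Janus kinases and STATs, the filter on low counts kept 13, of which 7 were called higher and 0 lower (median log2 fold change 0.19, against -0.01 over all genes tested). In this and the other lists, members with few or no untreated counts passed the filter only through the treated libraries and so had to differ. Each list count stands beside the shares over all genes tested, 17.2% called higher and 14.4% lower.

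Transcription factors of the second wave were among the larger changes. Irf1 rose from 10.6, 10.9 and 13.4 to 377, 400 and 364 CPM, 32.9-fold. Irf9, the DNA-binding partner of STAT2, went from 10.9, 11.6 and 10.6 to 77.5, 83.4 and 76.4 CPM (7.16-fold; edgeR adjusted p = 6.81e-18). Irf8, better known from myeloid cells, had no count in any untreated library and 1.65, 2.12 and 1.41 CPM with IFNγ, at least 30.9-fold higher against a floor of 3 counts over the group. Batf2, a basic leucine zipper factor that pairs with IRF1, was at 0.182, 0.119 and 0 CPM without and 58.4, 60.8 and 48.2 CPM with the cytokine. Its fitted log2 fold change of 8.86 rests on few untreated counts. Irf7, the type I interferon amplifier, rose from 0.228 to 0.415 CPM up to 7.29 to 8.80 CPM (4.69 ± 0.26), and Irf2, a competitor of IRF1 at shared sites, rose by 1.14 ± 0.08. The rest of the 16 listed factors, 8 genes including Irf3 and the class II factors Rfx5, Rfxap and Rfxank, did not pass. All 16 were kept by the filter, with 8 called higher, 0 lower and a median of 1.45.

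The feedback list held genes called in each direction. Socs1, which blocks JAK kinases, stood at 0.137, 0.297 and 0 CPM without and 3.24, 3.05 and 6.06 CPM with IFNγ. The groups did not overlap, although treated library 3 was well above the other two, and the change was 4.70 ± 0.54 on the log2 scale (edgeR adjusted p = 1.98e-06). Socs3 went from 4.39 to 6.495 CPM up to 13.1 to 14.4 CPM (1.30 ± 0.12). Usp18, the protease that removes ISG15 and damps the type I receptor, rose from 1.87, 1.78 and 1.93 to 14.3, 17.8 and 14.7 CPM (3.07 ± 0.17). Socs2, a regulator of growth hormone signalling, fell from 6.38, 6.41 and 5.39 to 4.04, 3.61 and 3.73 CPM (-0.68 ± 0.15; edgeR adjusted p = 0.00151). Of the 17 genes on the list 5 were called higher and 3 lower, beside 17.2% and 14.4% of all genes tested, which became 3 and 6 under upper-quartile scaling.

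**Figure D2:**
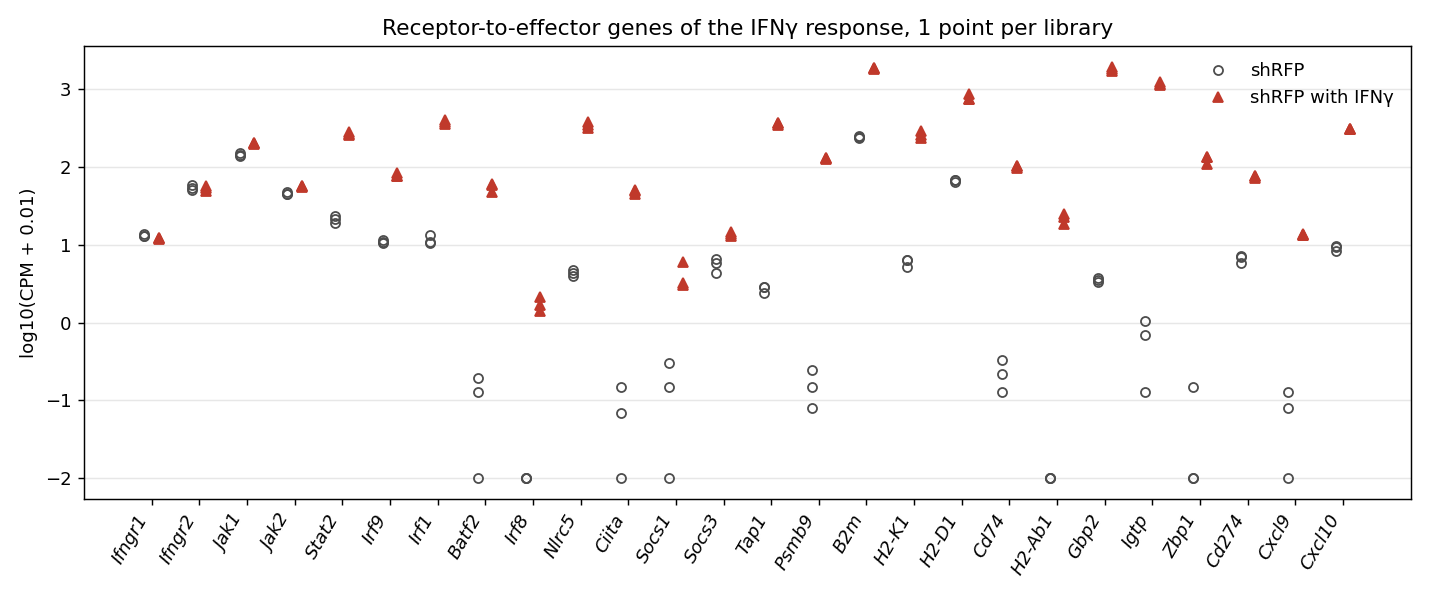
Level of genes from receptor to effector in the 6 control libraries, as log10(CPM + 0.01), with 1 open circle per untreated library and 1 filled triangle per library with IFNγ; a point at -2 is a library with 0 counts. Receptor chains overlap or nearly so, Stat2 and Irf1 separate by more than 1 unit, and Ciita, H2-Ab1, Igtp and Zbp1 start near or at 0.

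Classical class I genes rose from unequal starting levels. H2-D1, a heavy chain that presents peptides to CD8 T cells, stood at 67.9, 67.6 and 64.5 CPM without and 754, 753 and 878 CPM with IFNγ (3.57 ± 0.06; edgeR adjusted p = 2.07e-19). H2-K1, its partner locus, went from 6.43, 6.47 and 5.25 to 256, 240 and 291 CPM (5.43 on the log2 scale). Per kilobase of exon, B2m, the shared light chain, was at 285 CPM without IFNγ, H2-D1 at 25.9 and H2-K1 at 2.06, and with it they were at 2158, 308 and 89.4. The order of the 3 levels was thus kept while the span between them narrowed. H2-T23, which encodes the Qa-1 ligand of an inhibitory receptor on natural killer cells, went from 0, 0.237 and 0.0691 to 12.5, 8.91 and 11.4 CPM (6.75 ± 0.37; edgeR adjusted p = 2.87e-11). H2-T22 rose by 3.81, H2-Q4 by 3.45 and H2-M3, which presents formylated bacterial peptides, by 2.76. Of the longest H2-T22 transcript 52.0% is shared at 98% identity or more with H2-T10 and A930015D03Rik, the latter overlapping it on the other strand. The smallest changes were those of Mr1 (0.48), H2-T24 (0.94) and Cd1d1 (1.05), all nonclassical. The filter kept 11 of the 20 listed genes, and 11 were called higher; 8 had 0 counts in all 6 libraries and 1 was not matched.

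Peptide supply changed at each step from proteolysis to loading. Tap2, a subunit of the peptide transporter, went from 0.410, 0.653 and 0.553 to 59.6, 58.8 and 55.1 CPM (6.76 ± 0.12; edgeR adjusted p = 5.08e-19). Erap1, the peptidase that trims peptides in the endoplasmic reticulum, rose from 10.6, 12.7 and 12.5 to 242, 252 and 228 CPM (4.34 ± 0.07). The editing factor Tapbpl rose from 7.75 to 8.90 CPM up to 116 to 134 CPM (3.89), and Tapbp, the tapasin gene, by 3.98. General chaperones of the same compartment changed far less: Pdia3 by 0.22, while Canx did not pass. Of 9 loading genes, all kept by the filter, 7 were called higher and 0 lower (median 3.89), or 6 higher and 2 lower under upper-quartile scaling.

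The inducible proteasome subunits and those they replace behaved differently in size. Psmb8 had 0 counts in every untreated library and 6.61, 7.10 and 6.83 CPM with IFNγ, at least 122-fold higher. Psmb10 rose from 9.12, 8.60 and 10.2 to 326, 312 and 309 CPM (5.09 ± 0.06). The activator subunits Psme1 and Psme2 rose by 3.06 and 3.79. Psme2 shares 82.5% of its longest transcript with a near-identical copy, so its reads may be split or pooled. Pomp, the chaperone that assembles the core particle, rose from 100, 97.2 and 98.4 to 155, 160 and 152 CPM (0.66 ± 0.05; edgeR adjusted p = 3.06e-09). Psmb5, the constitutive counterpart of Psmb8, overlapped at 33.5, 35.0 and 36.6 against 38.9, 35.9 and 39.4 CPM and did not pass (edgeR adjusted p = 0.212). Of its longest transcript 88.4% is shared with other genes. Yet 13 of the 14 standard core subunits were called higher and 0 lower, by modest amounts (median 0.31). Psma2 rose from 132, 125 and 134 to 199, 212 and 197 CPM (0.64), and Psma5, a gene with 76.5% shared sequence, by 0.80. Under upper-quartile scaling 11 of the 14 were called higher.

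Class II genes went from almost no counts to clear levels. Ciita, the master regulator of class II transcription, had 3, 1 and 0 counts without IFNγ and 50.8, 49.0 and 45.0 CPM with it (9.19 ± 0.22; edgeR adjusted p = 5.19e-17). The fitted change of Ciita rests on those few untreated counts and ran from 8.77 to 10.25 over the alternative fits. The peptide-binding chains H2-Aa, H2-Ab1 and H2-Eb1 had 0 counts in all 3 untreated libraries. With IFNγ H2-Aa stood at 22.8, 29.97 and 19.2 CPM, H2-Ab1 at 18.6, 24.9 and 22.9 CPM and H2-Eb1 at 29.8, 39.9985 and 28.3 CPM. These were at least 430-fold, at least 394-fold and at least 585-fold higher, with treated library 2 the highest for each. Cd74, the invariant chain, rose from 0.119 to 0.319 CPM up to 96.9 to 105 CPM (8.77 ± 0.12), and the peptide exchange genes H2-DMa and H2-DMb1 by 4.35 and 3.40. Ctss, the protease that trims the invariant chain in professional antigen-presenting cells, had 0 counts without and 5 with IFNγ over the group and was not tested. Ifi30, a lysosomal thiol reductase, did not pass (0.01). Of the 12 listed genes the filter kept 7, with 6 called higher and 0 lower.

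**Figure D3:**
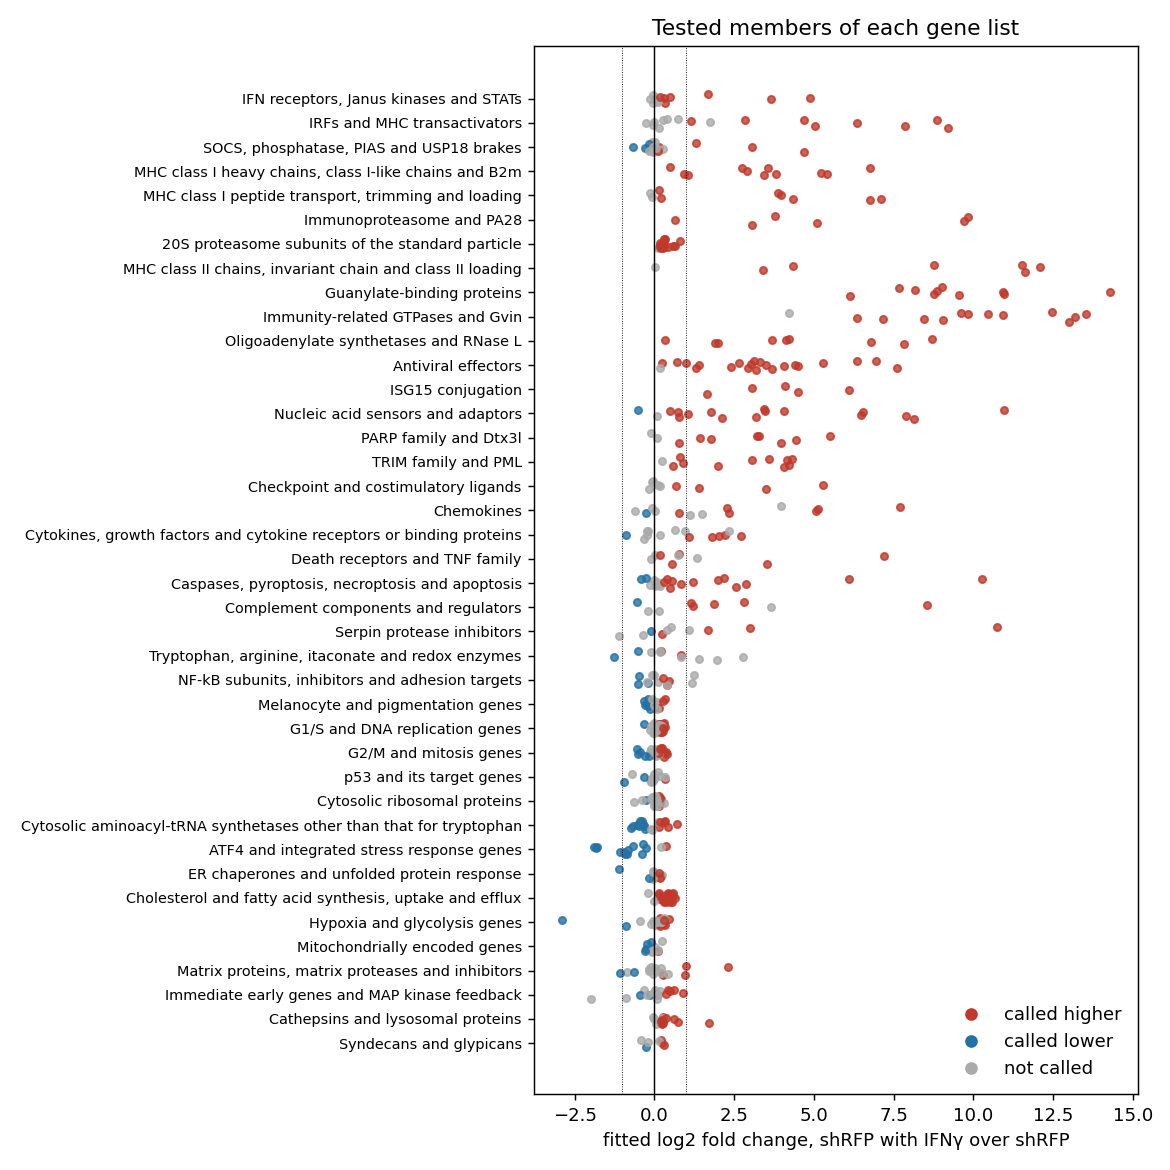
Fitted log2 fold change with IFNγ in control cells (horizontal) of the kept members of most gene lists, 1 point per gene, with dotted lines at a 2-fold change. Not drawn are the lists of expression references, leukocyte markers, stroma and epithelium markers, natural killer cell ligands, interferon genes and apolipoprotein L genes. Red points were called higher, blue points lower and grey points were not called. Interferon and antigen presentation lists extend to the right, while the lists for ATF4 and for aminoacyl-tRNA synthetases hold most points left of 0.

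The interferon-inducible GTPases, which attack vacuoles of intracellular pathogens, rose from traces to high levels. The 11 listed guanylate-binding protein genes summed to 4.91 to 5.83 CPM without and 2995 to 3207 CPM with IFNγ. The 15 genes listed as immunity-related GTPases and Gvin summed to 21.8 to 22.1 and 6329 to 6481 CPM. Gbp2 stood at 3.74, 3.32 and 3.52 CPM without and 1826, 1973 and 1716 CPM with IFNγ, a 518-fold rise (9.02 ± 0.08; edgeR adjusted p = 3.78e-23). Gbp3 went from 1.00, 1.72 and 1.17 to 365, 369 and 372 CPM (8.16), and Gbp7 from 0.593, 0.356 and 0.138 to 199, 161 and 197 CPM (8.85 ± 0.17). Gbp4 had 1 count in the 3 untreated libraries together and 541, 521 and 524 CPM with IFNγ, a ratio of 28161 with an exact 95% interval of 5054 to 1112360. Its exons overlap those of Gbp8 and Gbp9. Gbp6 had a ratio of 2392 (662 to 19761), and Gbp10, with 97.8% of its sequence shared with copies, 2741 (491 to 108290). The filter kept 10 of the 11 listed, most of them only through the treated libraries, and 10 were called higher; Gbp2b, with 1 and 2 counts, was not tested.

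The regulatory members of the immunity-related GTPases guard the cell's own membranes. Among them Irgm1 stood at 18.3, 19.4 and 18.8 CPM without and 1491, 1639 and 1469 CPM with IFNγ, 81.4-fold higher (6.35 ± 0.06; edgeR adjusted p = 4.16e-23). Irgm2 went from 1.504, 1.84 and 1.24 to 806, 838 and 830 CPM (9.06). Igtp, the Irgm3 gene, was at 0.684, 0.119 and 1.04 CPM without and 1162, 1234 and 1147 CPM with IFNγ (10.92 ± 0.15), and shares exon sequence with Irgm2. Effector members load onto the pathogen's vacuole. Tgtp2 had 3 counts over the untreated group and 761, 760 and 746 CPM with IFNγ, a ratio of 13419 (4591 to 65072); it is nearly identical to Tgtp1, so reads may be split or pooled between them. Ifi47 rose by 9.60 and Iigp1 by 13.18 on the fitted scale. Per kilobase of exon with IFNγ, Gbp2 was at 731 CPM and Igtp at 584, followed by Irgm1 at 264, Tgtp2 at 257, Irgm2 at 224, Ifi47 at 202 and Iigp1 at 161. Of the 15 listed genes 13 were kept and 12 were called higher; Gvin1 did not pass (adjusted p = 0.0642).

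Genes usually grouped under type I interferon rose as well, without transcripts of the interferons themselves. Of 10 type I, II and III interferon genes 9 had 0 counts in all 6 control libraries and the other had 1 count. Ifit3, which binds viral RNA together with IFIT1, rose from 4.51, 4.39 and 4.56 to 179, 175 and 169 CPM (5.28 ± 0.06; edgeR adjusted p = 3.54e-22). Its neighbour in function Ifit2 had a high untreated level of 98.005, 98.7 and 94.4 CPM and rose only to 119, 105 and 122 CPM (0.25 ± 0.05; edgeR adjusted p = 0.00155). Rsad2, which encodes viperin, went from 14.2, 14.0 and 12.2 to 122, 119 and 132 CPM (3.20). The virion tether Bst2 rose from 43.6, 44.9 and 51.8 to 588, 563 and 643 CPM (3.68), and Ifitm3, a block to viral entry, from 12.6, 12.8 and 13.4 to 222, 217 and 205 CPM (4.06). Ifitm2 did not pass. Of 27 antiviral effectors the filter kept 22, of which 21 were called higher and 0 lower (median 3.16).

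Oligoadenylate synthetases sense double-stranded RNA. Of 9 genes listed for this system 9 were kept and called higher (median 4.11). Oas1a rose from 1.11 to 1.69 CPM up to 22.5 to 26.7 CPM (4.22), Oasl2 from 0.182, 0.119 and 0.138 to 68.0, 67.0 and 60.5 CPM (8.69 ± 0.13), and Oas3 was at least 30.5-fold higher. The 5 genes of the ISG15 conjugation system were called higher too: Isg15, the ubiquitin-like modifier, went from 3.10, 3.62 and 2.21 to 69.7, 65.9 and 69.0 CPM (4.49 ± 0.10; edgeR adjusted p = 2.25e-17), and its activating enzyme Uba7 from 0.684, 1.07 and 1.04 to 64.6, 61.4 and 60.4 CPM (6.09).

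Sensors of foreign nucleic acid and bacterial products also changed. The Z-form nucleic acid sensor Zbp1 had 3 counts in untreated library 1 and none in the others, and stood at 137, 134 and 110 CPM with IFNγ, a ratio of 2261 (773 to 10965). Ddx58, which encodes RIG-I, rose from 11.4, 10.97 and 11.7 to 121, 128 and 127 CPM (3.46), and Nod1, a sensor of peptidoglycan, by 4.08. Tmem173, the STING gene, rose by 0.76 and Cgas by 0.48, while the adaptor Mavs did not pass. Tlr4, the lipopolysaccharide receptor, was the 1 sensor called lower and fell from 38.1, 32.3 and 34.3 to 26.6, 19.3 and 28.2 CPM (-0.51 ± 0.11; edgeR adjusted p = 0.0014). The filter kept 17 of 20 sensors, with 15 called higher and 1 lower. Parp14, a mono-ADP-ribosyltransferase, rose from 6.79, 6.35 and 6.98 to 318, 286 and 304 CPM (5.495) among 8 called higher of the 10 genes listed for the PARP family and Dtx3l, whereas the DNA repair enzymes Parp1 and Parp2 did not pass. Trim21, the cytosolic antibody receptor, rose from 4.69 to 5.88 CPM up to 61.4 to 64.8 CPM (3.59) among 10 of 11 TRIM family genes kept.

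Ligands that T and natural killer cells read were mixed. Besides Cd274, the PD-L1 gene (3.50), Lgals9, a galectin ligand of TIM-3, rose from 30.1, 26.1 and 31.7 to 71.7, 80.6 and 78.6 CPM (1.39). Tnfrsf14, the HVEM gene, rose from 0.274, 0.297 and 0.138 to 11.6, 8.54 and 9.37 CPM (5.29 ± 0.25), and Cd47, the signal that restrains phagocytosis, from 36.2 to 41.2 CPM up to 58.1 to 63.6 CPM (0.69). Pvr, Nectin2 and Cd276 did not pass, and the second PD-1 ligand, Pdcd1lg2, had 6 counts without and 1 with IFNγ. Cd86, Vtcn1, Vsir and Cd200 had 0 counts. Of 15 checkpoint genes the filter kept 9, with 4 called higher and 0 lower. Clec2d, a ligand of an inhibitory natural killer receptor, rose from 0.593, 0.534 and 0.276 to 11.4, 10.9 and 11.8 CPM (4.52 ± 0.22; edgeR adjusted p = 5.26e-12). Serpinb9, an inhibitor of granzyme B, rose from 4.65, 6.35 and 5.18 to 41.3, 47.5 and 39.9 CPM (3.00).

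Among chemokines, the CXCR3 ligands changed most. Cxcl10 stood at 8.30, 9.79 and 9.47 CPM without and 306, 312 and 307 CPM with IFNγ, a 33.8-fold rise (5.08 ± 0.07; edgeR adjusted p = 4.8e-21). Cxcl9 had 0, 0.119 and 0.0691 CPM without and 13.8, 13.2 and 13.3 CPM with it, a ratio of 239 (81.3 to 1161), and Cxcl11 had a ratio of 39.5 (13.1 to 195). No treated library of either overlapped an untreated one. Ccl5, an attractant of T cells, rose from 2.96, 4.39 and 4.35 to 19.4, 17.6 and 20.8 CPM (2.33 ± 0.12), and Cx3cl1, or fractalkine, by 0.77. The 23 listed chemokines summed to 40.2 to 43.2 CPM without and 370 to 374 CPM with IFNγ. The filter kept 13 of them, of which 6 were called higher and 1, Ccl25, lower (-0.27).

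Cytokine genes that rose included Csf1, the macrophage growth factor, from 31.4, 33.7 and 36.3 to 143, 138 and 136 CPM (2.04), and Il18bp, the decoy of IL-18, from 3.97, 3.97 and 4.91 to 29.6, 28.5 and 25.6 CPM (2.72). The receptor chain Il15ra rose by 1.79, while Il15 itself did not pass (0.17). Vegfa, the vascular growth factor, fell from 57.4, 62.0 and 52.3 to 31.9, 26.5 and 34.4 CPM (-0.89 ± 0.08; edgeR adjusted p = 1.17e-07). Of 25 listed cytokines and growth factors 14 were kept, with 5 called higher and 1 lower, or 3 lower under upper-quartile scaling. Complement C4b rose from 0.182, 0.178 and 0.553 to 115, 105 and 108 CPM (8.56 ± 0.13), and the protease gene C1ra by 2.81. Of 8 apolipoprotein L genes 4 were kept, all through the treated libraries. Among them Apol6 had 0 counts without and 48.5, 40.5 and 48.5 CPM with IFNγ (at least 811-fold), and Apol9a, which shares sequence with Apol9b, rose from 0, 0.119 and 0.138 to 76.1, 77.4 and 75.1 CPM (9.85).

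Death pathway genes rose in part. Casp12, an inflammatory caspase, had 0 counts without and 9.92, 7.73 and 10.3 CPM with IFNγ, at least 164-fold higher. Xaf1, an antagonist of XIAP, rose from 0.912, 0.712 and 0.622 to 56.4, 54.0 and 50.1 CPM (6.11). Mlkl, the effector of necroptosis, rose from 47.8, 49.1 and 49.1 to 191, 206 and 189 CPM (2.01), whereas Ripk3, the kinase that activates it, had 0 counts without and 1 with IFNγ. Gsdmd, the pore-forming substrate of Casp4, rose by 2.88 and Casp4 by 2.57, whereas Casp1 had 0 and 1 counts. The initiator Casp8 rose by 0.39. Of 24 genes 21 were kept, with 12 called higher and 2, Bcl2 (-0.26) and Bbc3 (-0.42), lower. Of the death ligands and receptors, Tnfsf10, the TRAIL gene, had 1 count without and 4.17, 3.80 and 3.59 CPM with IFNγ (ratio 205, 36.4 to 8162), and Fas had 1 and 4 counts and was not tested.

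Several textbook targets of IFNγ in other cells were absent or barely changed. Ido1, which degrades tryptophan, had 0 counts in all 6 libraries, and Nos2, the inducible nitric oxide synthase, had 0 without and 2 with IFNγ. Wars, the tryptophanyl-tRNA synthetase, rose from 173, 174 and 185 to 206, 211 and 204 CPM (0.22 ± 0.04; edgeR adjusted p = 0.00055). Of 15 NF-kB pathway genes 13 were kept, with 3 called higher (Nfkbiz, Nfkbie and Tnip1, by 0.27 to 0.47) and 3 lower (Nfkb2, Relb and Nfkb1, by -0.50 to -0.21). These counts are near the shares over all genes tested, 17.2% higher and 14.4% lower. Sdc1 itself stood at 76.4, 73.9 and 75.9 CPM without and 83.3, 79.6 and 103 CPM with IFNγ (0.23; edgeR adjusted p = 0.0241), and was 1 of the genes whose call was lost under some alternatives.

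Genes of the integrated stress response fell. In this pathway ATF4 raises genes for amino acid synthesis, uptake and tRNA charging when translation is stressed. Atf4 itself fell from 566, 549 and 573 to 298, 316 and 323 CPM, 1.8-fold (-0.85 ± 0.04; edgeR adjusted p = 3.78e-12). Chac1, which degrades glutathione, stood at 62.2, 62.5 and 60.5 CPM without and 14.8, 14.4 and 21.3 CPM with IFNγ, 3.69-fold lower (-1.88 ± 0.10). Trib3, a pseudokinase, fell from 132, 147 and 139 to 35.8, 38.0 and 43.7 CPM (-1.83 ± 0.08; edgeR adjusted p = 4.28e-13). The asparagine synthetase Asns fell from 385, 376 and 362 to 171, 179 and 180 CPM (-1.08 ± 0.05), and Nupr1, a stress-induced nuclear protein, from 36.9, 37.5 and 33.0 to 11.2, 9.03 and 11.1 CPM (-1.78 ± 0.09). In each of these the 2 groups were well apart. Of 16 listed genes 14 were kept, with 12 called lower and 1 higher (median -0.84), and the summed level of the list went from 3867 to 3918 CPM down to 2286 to 2447 CPM. The gene called higher was Atf3, a stress factor that many other signals also induce, at 11.4, 12.1 and 13.1 against 13.6, 17.1 and 16.4 CPM (0.37 ± 0.11; edgeR adjusted p = 0.0143).

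The genes that follow are not on that list, apart from those said to be, and were named among the 20 lowest or after their values were seen. Pck2, the mitochondrial phosphoenolpyruvate carboxykinase, fell from 144, 146 and 141 to 49.3, 54.6 and 60.4 CPM (-1.39), and Gpt2, an alanine aminotransferase, from 95.3, 92.9 and 93.8 to 36.9, 35.3 and 42.7 CPM (-1.30). Slc7a11, the cystine importer, fell from 85.0, 88.3 and 76.4 to 34.9, 28.9 and 40.8 CPM (-1.26 ± 0.09; edgeR adjusted p = 2.58e-09), and its partner Slc3a2 changed by -0.52. Of the listed genes, the leucine transporter Slc7a5 fell from 352, 371 and 371 to 202, 196 and 185 CPM (-0.91). Pycr1, for proline synthesis, changed by -1.30, Slc1a4, a neutral amino acid carrier, by -1.20, the listed Mthfd2 and Shmt2, for mitochondrial folate, by -0.97 and -0.67, and the TORC1 inhibitors Ddit4 and Sesn2 by -1.07 and -0.95.

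The tRNA synthetases split. Of the 19 cytosolic enzymes other than that for tryptophan, 10 were called lower and 6 higher (median -0.28), or 12 and 4 under upper-quartile scaling. Sars fell from 668, 675 and 679 to 422, 414 and 451 CPM (-0.65) and Cars changed by -0.73, while Kars rose from 235, 228 and 237 to 372, 403 and 375 CPM (0.72 ± 0.04; edgeR adjusted p = 9.66e-11). The unfolded protein response list did not follow Atf4: of 15 genes 6 were called higher and 2 lower, or 3 and 3 under upper-quartile scaling. Hspa5, the main chaperone of the endoplasmic reticulum, rose from 1013, 996 and 1046 to 1126, 1215 and 1190 CPM (0.21), and Herpud1, a factor of protein disposal there, fell from 178, 171 and 176 to 76.5, 84.6 and 83.6 CPM (-1.10).

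The promoter windows were also searched for TGATGNAA, the letters of the C/EBP-ATF response element, a motif chosen after the lower genes were seen. It was found for 2.74% of tested genes with a window, 2.2% of those not called and 4.51% of all genes with a window. Of the 158 genes at least 2-fold lower 65 had a window, and 13 of these had the motif. But it was also found for 6.09% of genes at least 2-fold higher. The matches of 3 genes of the ATF4 list, each before the gene start, are printed as examples, with the letters in capitals as above.
Asns, chr6:7693210-7693257, minus strand: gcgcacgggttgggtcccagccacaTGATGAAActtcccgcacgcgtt
Chac1, chr2:119351024-119351081, plus strand: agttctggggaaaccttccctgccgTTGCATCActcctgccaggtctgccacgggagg
Nupr1, chr7:126625548-126625605, minus strand: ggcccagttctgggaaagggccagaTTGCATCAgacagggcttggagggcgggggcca
The matches start at -23 in Asns, -193 in Chac1 and -110 in Nupr1.

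**Figure D4:**
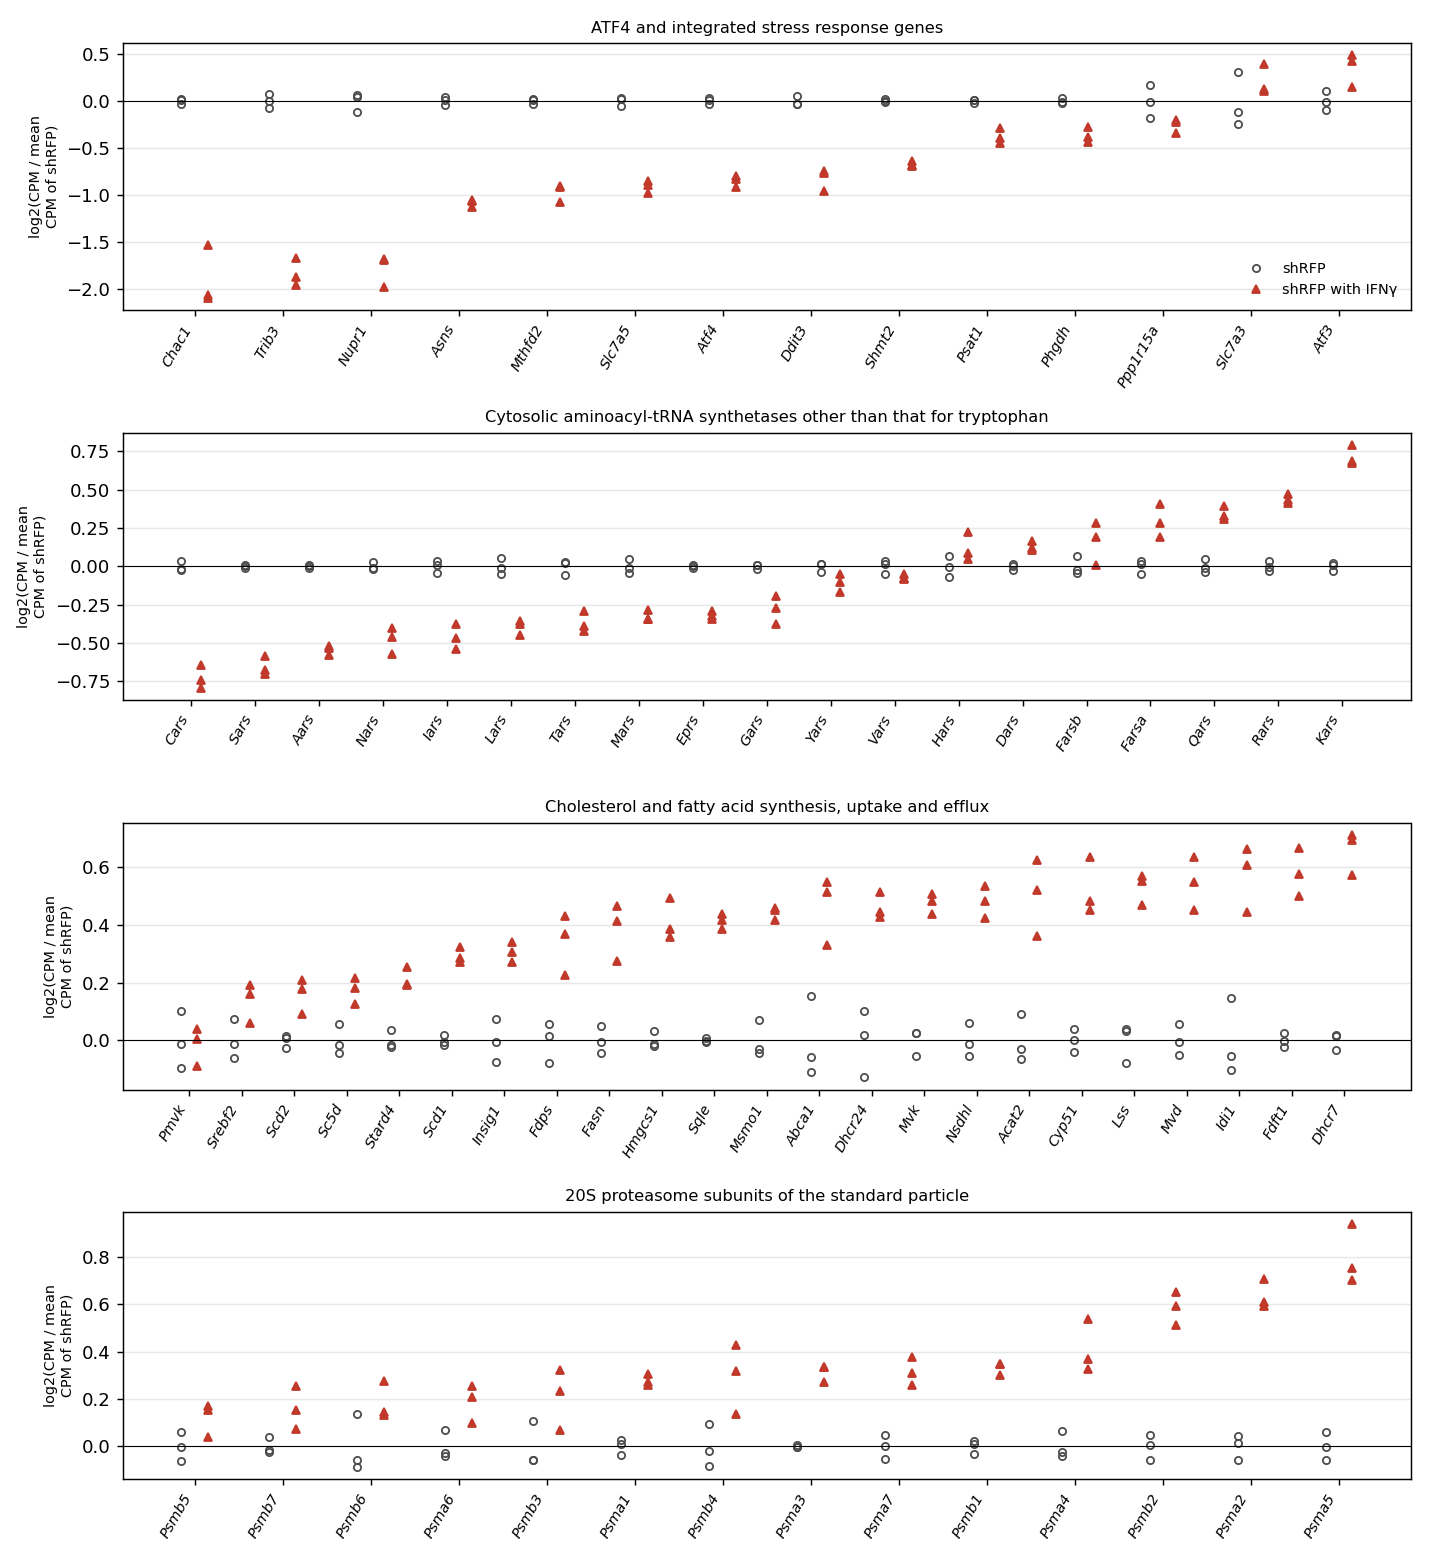
Level of the kept members of 4 lists, other than genes not reported here, in the 6 control libraries, as log2 of its CPM over the mean CPM of the untreated libraries, with open circles for shRFP and filled triangles for shRFP with IFNγ, genes ordered by fold change. Most ATF4 genes sit below 0 with IFNγ, the tRNA synthetases lie on both sides, and most sterol genes (not Pmvk) and standard proteasome subunits sit modestly above 0.

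Sterol and lysosomal genes rose by small amounts. Of 28 genes for cholesterol and fatty acid synthesis, uptake and efflux, 26 were kept and 24 were called higher, with 0 lower (median 0.41; 22 higher under upper-quartile scaling). Dhcr7, the last enzyme of cholesterol synthesis, rose from 103, 99.8 and 104 to 167, 165 and 152 CPM, 1.58-fold (0.66 ± 0.05; edgeR adjusted p = 1.94e-09). Fdft1, which makes squalene, rose by 0.58 and Idi1, an isomerase of the same route, by 0.57. Ch25h, whose product 25-hydroxycholesterol is an antiviral sterol, had 0 counts. Of 18 lysosomal genes 16 were kept and 11 were called higher: Ctsb, the cathepsin B gene, rose from 514, 518 and 519 to 802, 805 and 792 CPM (0.63), and Ctso from 5.70, 5.22 and 5.94 to 17.2, 18.8 and 19.3 CPM (1.71).

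Cell identity and growth genes changed little. Of 24 pigment-cell genes 22 were kept, with 3 called higher and 7 lower (median -0.06), or 2 and 9 under upper-quartile scaling. Over all genes tested 17.2% were called higher and 14.4% lower. Tyr, the tyrosinase gene, fell from 435, 434 and 421 to 344, 335 and 354 CPM (-0.32 ± 0.04; edgeR adjusted p = 1.4e-05), and Pax3, a melanocyte lineage factor, changed by -0.29. Gpnmb rose from 8198, 8486 and 8552 to 10193, 10575 and 9890 CPM (0.28 ± 0.03), and Mc1r, the melanocortin receptor, by 0.34. The lineage factor Mitf overlapped between groups and did not pass (adjusted p = 0.476), nor did Tyrp1, Dct, Mlana or Sox10.

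Of 32 genes for entry into and passage through S phase 18 were called higher and 1 lower (median 0.17; 13 and 2 under upper-quartile scaling), and of 24 mitotic genes 9 higher and 5 lower. Top2a rose from 933, 901 and 902 to 1187, 1191 and 1176 CPM (0.38), while Mki67 fell from 778, 836 and 780 to 646, 451 and 597 CPM (-0.50 ± 0.10; edgeR adjusted p = 0.000724). Treated library 2 was the lowest for Mki67 and for the kinetochore gene Cenpf, which fell from 177 to 209 CPM down to 112 to 156 CPM (-0.44). Of 16 p53 pathway genes 15 were kept, with the kinase inhibitor Cdkn1a called higher (0.33) and 2 genes lower, or 4 lower under upper-quartile scaling. Of 40 ribosomal protein genes 5 were called higher and 1 lower (median 0.06), or 2 and 2 under upper-quartile scaling. Of 12 genes listed as expression references, Gapdh not among them, 7 were called higher and 0 lower, or 3 and 0 under upper-quartile scaling. Their median of 0.15 was close to that of the S phase list. For all genes tested the shares called were 17.2% higher and 14.4% lower.

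Some genes outside immunity moved by more. Lgals3bp, a secreted glycoprotein, rose from 192, 194 and 192 to 969, 968 and 925 CPM (2.31 ± 0.03), and Fn1, the fibronectin gene, from 57.6, 67.2 and 66.7 to 129, 120 and 120 CPM (0.95). Col1a2, a collagen chain, fell from 41.7, 38.1 and 41.6 to 17.9, 19.8 and 19.9 CPM (-1.07). Dusp6, which inactivates ERK, rose from 48.2, 47.2 and 49.8 to 91.2, 89.8 and 87.3 CPM (0.89). Hoxb9, a homeobox factor, had the second lowest fold change among the genes named by the rule and fell from 8.02, 7.24 and 5.87 to 1.79, 1.31 and 1.62 CPM (-2.18 ± 0.19), and the long noncoding RNA Neat1 fell from 177, 219 and 155 to 89.7, 74.6 and 89.2 CPM (-1.12). Gapdh, a glycolytic enzyme often used as a reference gene, had the lowest value (-2.90 ± 0.47; edgeR adjusted p = 0.000115) but unlike replicates: 75.5, 481 and 453 CPM without and 48.5, 43.8 and 42.5 CPM with IFNγ. Of its longest annotated transcript, 3289 bases, 35.7% is shared with 74 other genes, and the share for shorter transcripts was not measured. Untreated library 1 lay close to the treated range.

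The response was set beside that of the Sdc1 knockdown cells by testing the difference itself. Of all genes 9.73% were called for it, 4.58% higher and 5.15% lower in shSdc1. shSdc1 library 3 stood apart from its replicates, and without it 1127 genes were called, 1036 of them shared with the 1371. The count was 847 without untreated control library 1 and 839 without untreated control library 2. Of the named genes 85 were called for a difference, of which 79 still were without that library and 0 changed sign. A difference was not called for B2m (-0.06), Tap1 (0.03), Gbp2 (-0.01) or Cd274 (0.23). For Irgm1, by contrast, the log2 rise was smaller by 0.69 ± 0.08 in the knockdown (interaction -0.69; edgeR adjusted p = 2.23e-05). For Irf1 the interaction was -0.55 ± 0.10 and for Psmb10 -0.84 ± 0.08. With IFNγ Irf1 stood at 376, 349 and 361 CPM in the knockdown, against 364 to 400 CPM in control cells, and without it at 16.3, 16.6 and 15.3 CPM, above every control library. Stat2 had an interaction of 0.50 ± 0.09 and H2-D1 of 0.51 ± 0.08, and 9 antiviral effectors were called for a larger rise in the knockdown and 2 for a smaller one.

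Of the 14 genes of the ATF4 list that were kept, 12 had a called interaction above 0, set beside 4.58% of all genes tested. These include Atf3 (interaction 0.92 ± 0.15), which rose in control cells, while the rest had fallen there. The calls for Psat1, Phgdh and Shmt2 were lost without shSdc1 library 3 (edgeR adjusted p = 0.0567, 0.103 and 0.0671). Chac1 (1.07 ± 0.15; edgeR adjusted p = 0.00028) and Trib3 (1.28 ± 0.11; edgeR adjusted p = 2.14e-06) are examples. Untreated knockdown cells held 25.1, 29.3 and 27.2 CPM of Chac1, below every untreated control library, and 14.8, 14.9 and 16.8 CPM with IFNγ, within the treated control range of 14.4 to 21.3. Trib3 was at 59.5, 67.5 and 64.1 CPM without and 43.2, 39.1 and 48.2 CPM with IFNγ in the knockdown. Asns was at 200, 215 and 203 and then at 152, 153 and 168 CPM there. For these 3 genes the lines differed more before IFNγ than after it.

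**Figure D5:**
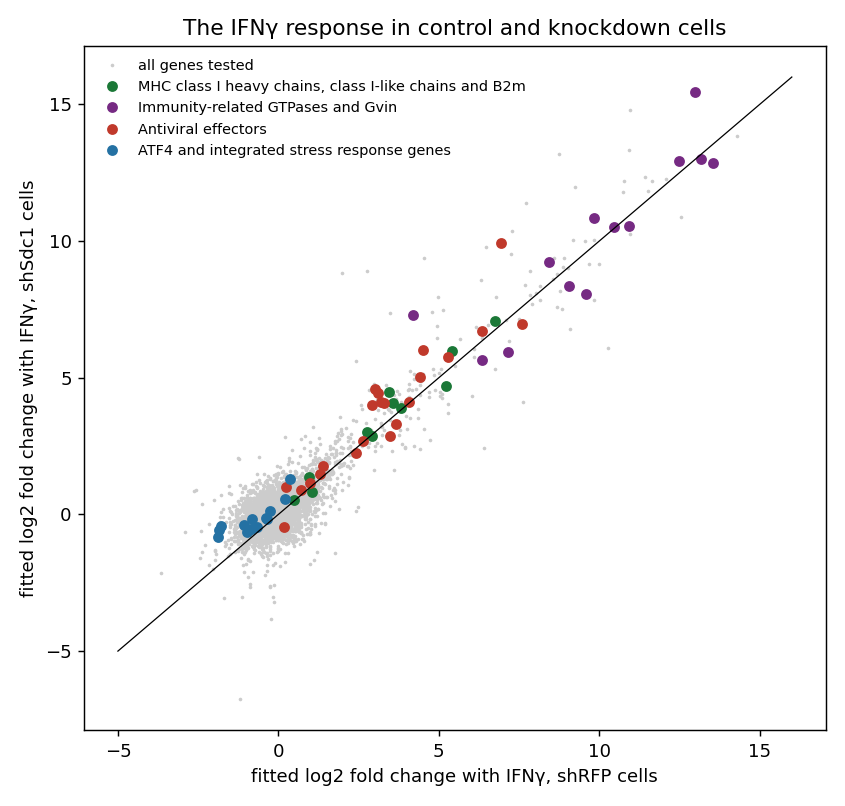
Fitted log2 fold change with IFNγ in control cells (horizontal) against that in Sdc1 knockdown cells (vertical), 1 point per gene tested, with 4 lists in colour and the line of equal change. Most coloured points of large rise lie near the line, with Irgm1 and Ifi47 below it and H2-D1 and H2-K1 above, several antiviral effectors lie above it, and most ATF4 genes lie above it at the lower left; values of genes with few or no untreated counts depend on edgeR's prior count.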

How the data were processed

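The authors deposited raw whole-number counts for 12 libraries in 56093 entries, each a gene or an assembled locus. Per the submitters' processing notes, the tools were HTSeq, HISAT2 2.0.5 and Trimmomatic, with the build GRCm39 (annotation and strand: not given in the sources used here). Gene symbols matched 52083 entries, 3333 Ensembl entries had no symbol and 677 were assembled loci.

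Counts were scaled by TMM, filtered with filterByExpr (minimum count 10, total 15), and fitted with edgeR 4.0.16 (R 4.3.3) over all 12 libraries, 1 coefficient per group, leaving 8 residual degrees of freedom (common coefficient of variation 0.0633). Tests were two-sided, with Benjamini-Hochberg adjustment over all 14089 genes of a contrast. Levels are TMM-scaled CPM. The SE is the log2 fold change over the square root of F, and understates the error of large folds from few counts. Folds against 0 counts used a floor of 3 counts, and ratios over 1 to 3 counts exact 95% intervals; both cover counting error only. On simulated data 74, 90, 100 and 100% of genes changed 1.5, 2, 4 and 8-fold were recovered (50 genes per fold), beside 17 false calls among 13574 genes run. The changed genes were drawn only from those above a minimum untreated level, so genes with few or no untreated counts were not covered. The simulated spread followed the trend with level, not each gene, and all else stayed at the untreated control level. Far fewer genes were changed than the 4446 called in the data. The 17 false calls are a larger share of the calls made than of the genes run.

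The members, the 46 lists and 41 core genes were chosen with earlier results of these data known. The rule named the core genes, the 20 highest and 20 lowest called genes with separate ranges and 5 CPM or more in either group, and up to 6 per list; others named, including those that did not pass, were chosen after their values were seen. Shared sequence was searched with BLAST 2.17.0 on a GRCm38 reference and is given as a percentage of each gene's longest annotated transcript. Promoters came from RefSeq. Alternatives were upper-quartile and relative log expression (RLE) scaling in edgeR, the DESeq2 1.42.0 Wald test, limma-voom (limma 3.58.1) and other filters. Further ones were the 6 shRFP libraries alone, a replicate block, a minimum fold and leaving out each of the 6 shRFP libraries. A fit without shSdc1 library 3 was added after seeing the data. A few genes that these rules name are not reported here.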

Additional observations from a re-analysis of the deposited data

Results flagged for a closer look

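For 1371 genes the response to IFNγ differed between Sdc1 knockdown and control cells by the interaction test (edgeR adjusted p under 0.05); the named genes among them with a core role or among the largest changes follow, each with the log2 response in knockdown minus that in control cells. In the pathway and antigen presentation the differences were 0.50 for Stat2, -0.55 for Irf1, 0.56 for H2-K1, 0.51 for H2-D1, -1.43 for Tap2, -0.37 for Tapbp and -0.84 for Psmb10. Among effectors they were 1.11 for Ccl5, -0.69 for Irgm1, -1.53 for Ifi47, -2.02 for Apol9a and -4.18 for Casp12. Casp12 had 0 counts in untreated control cells, so its value depends on the prior count. With IFNγ the knockdown libraries held 47.2, 48.1 and 43.4 CPM of Casp12 and 118, 116 and 105 CPM of Apol9a. For both genes these were above every treated control library. Untreated knockdown libraries were also above every untreated control library for both. The negative values of these genes thus did not come from lower levels with IFNγ.

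Among genes lower with IFNγ in control cells, the differences were 1.07 for Chac1, 1.28 for Trib3, 1.36 for Nupr1, 0.70 for Asns, 0.76 for Pck2, 1.29 for Pycr1, 0.82 for Gpt2, 0.57 for Slc1a4, 0.92 for Ddit4, 0.78 for Atf5 and 0.45 for Herpud1. They were 1.83 for Hoxb9, 1.73 for Chd5, 1.15 for Cabp1, 0.44 for Col1a2 and -0.76 for Abca12, the last a larger fall in the knockdown. For Gapdh the difference was 2.25, from untreated control libraries of 75.5, 481 and 453 CPM. Without shSdc1 library 3 the calls for H2-K1 (edgeR adjusted p = 0.0578) and Gapdh (0.073) were lost.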

How the results depend on the processing

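Under the alternatives 3445 to 4507 genes were called when each of the 6 shRFP libraries was left out in turn, 1940 to 2481 higher and 1468 to 2026 lower. In these fits 397 to 413 genes were called at least 2-fold higher and 123 to 181 at least 2-fold lower. The interaction count ran from 839 to 1999 (391 to 943 higher, 443 to 1056 lower); it was 847 without shRFP replicate 1 (391 and 456) and 839 without shRFP replicate 2 (396 and 443), and without shRFP_IFNg replicate 2 the count higher was 422. A test against a 2-fold minimum called 272 genes, 263 higher and 9 lower, and 0 for the interaction, where 86 genes had an unadjusted p under 0.05 and DESeq2 without that minimum called 1429. Upper-quartile scaling gave 1759 higher and 2811 lower, and 3783 genes were shared with the TMM calls. DESeq2 called 4023, limma-voom 4532 and the 6 shRFP libraries alone 3616. With the replicate number as a block 4185 genes were called (2284 higher, 1901 lower) and 1028 for the interaction. Same-numbered control libraries did not deviate together (correlations -0.018, -0.068 and -0.053). A lack of shared deviation does not show that they were grown or handled apart, and the labels do not say. Of 253 named genes called, 236 were called under every alternative run for them, the fold minimum aside (up to 15). Another 17 were lost under at least 1 (Sdc1, Pgk1, Hprt and Xbp1 among them) and 0 reversed. Most named genes were picked for being called with large changes, so these counts do not stand for all genes. Of all 4446 genes called in the main fit, 3345 to 3900 were called again when each of the 6 shRFP libraries was left out. Values that changed sign belonged to genes that were not called: Ifngr2 ranged from -0.0818 to 0.0315 when each of these was left out (0.0315 without shRFP replicate 1, 0.0158 without shRFP_IFNg replicate 1) and Pmel from -0.0613 to 0.0165 (the latter without shRFP_IFNg replicate 3). Gapdh ranged from -3.38 to -2.45, with a highest edgeR adjusted p of 0.0041. The cause of these changes was not tested. Genes that the filter on low counts removed were not tested.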
